A study of Mus musculus with 9 samples.

Results

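The Hox genes examined here are the 39 protein-coding genes of the mouse annotation GENCODE M1 whose symbol is Hoxa, Hoxb, Hoxc or Hoxd followed by a number, of 22367 protein-coding genes in all. *Hoxa3* has more than one gene identifier, so the 39 genes stand for 40 identifiers. Binding of BAP1 was taken from 1 list of 13164 ChIP-Seq peaks, each 200 bp wide, from Ba/F3, an established mouse cell line of the B lineage, at the precursor stage, that needs IL-3 to grow. The list was made from 2 immunoprecipitations, one with an anti-BAP1 antibody from wild-type Ba/F3 cells and one with an anti-FLAG antibody from Ba/F3 cells that stably express triple-FLAG-tagged murine BAP1. In ChIP-Seq, DNA that is crosslinked to a protein is recovered with an antibody and sequenced, and a peak is a place with more reads than in input DNA of the same cells. Each immunoprecipitation was sequenced once and the list carries no height or p-value, so no value below has a replicate error, no test between conditions was possible and the depth is unknown. The list holds binding and no expression, so the label of the cell line could not be checked against its markers. The other 7 samples of the series (H2AK119ub immunoprecipitations and inputs, *Bap1* knockout clones among them) were not analysed here.

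Hox genes encode transcription factors that bind DNA through a homeodomain and give position along the body axis to cells of the embryo. They lie in clusters named A, B, C and D that arose by duplication, and members with the same number, called paralogs, are more alike than neighbors in a cluster. In cells where they are silent, Hox clusters are a classical target of Polycomb complexes, one of which ubiquitinates histone H2A (the mark H2AK119ub). BAP1 is a deubiquitinase that removes this mark. In blood, several Hox genes such as *Hoxa9* and *Hoxb4* are active in stem and progenitor cells and fall as these cells mature.

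No Hox gene carried a BAP1 peak at its promoter. The middle of a listed peak lay within 1 kb of a transcription start site (TSS) at 0 of 39 Hox genes, with a 95% Wilson interval of 0 to 8.97% that covers counting error only. This interval treats the genes as independent. They lie in 4 clusters where neighbors share the same stretch without a peak, so the interval is too narrow. Among all protein-coding genes the share was 39.6%. The count was 0 in each cluster, with 11 genes in HoxA, 10 in HoxB, 9 in HoxC and 9 in HoxD. Likewise, it was 0 in each range of paralogs, with 8 genes numbered 1 to 3, 15 genes numbered 4 to 8 and 16 genes numbered 9 to 13. Counted by start site, none of the 84 distinct TSSs of the Hox genes had a peak within 1 kb, whereas 35.7% of the TSSs of all protein-coding genes did. The count was also 0 within 500 bp, 2 kb and 5 kb, where the shares of all protein-coding genes were 38.6%, 40.4% and 42.5%. A gene without a listed peak may still be bound below the threshold of the peak caller, which is not given in the sources used here. Every listed peak is named for both immunoprecipitations together, so a site called in only 1 of them may also be missing.

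In the 4 windows that reach from 100 kb before to 100 kb after each cluster, 5 peaks were listed. The sequences of 4 of them (mm9, plus strand, 5′ to 3′) are printed because few BAP1 sites are listed near the Hox genes. Capitals mark matches to any of 12 short motifs, which are named where the sites are described. Of the sites at *Lnp* and *Mtx2*, the longest part outside untranslated and other noncoding exons is shown.
Inside HoxB, downstream of *Hoxb13*, chr11:96061031-96061230: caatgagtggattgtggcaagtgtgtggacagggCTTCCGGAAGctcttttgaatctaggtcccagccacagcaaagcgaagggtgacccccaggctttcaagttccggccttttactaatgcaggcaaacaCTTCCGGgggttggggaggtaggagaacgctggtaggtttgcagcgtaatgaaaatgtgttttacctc
In *Calcoco2*, before HoxB, chr11:95961340-95961539: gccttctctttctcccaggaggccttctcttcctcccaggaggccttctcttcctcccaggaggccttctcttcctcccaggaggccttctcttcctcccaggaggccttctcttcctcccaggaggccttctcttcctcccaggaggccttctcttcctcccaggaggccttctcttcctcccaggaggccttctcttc
At the promoter of *Lnp*, before HoxD, chr2:74417006-74417132: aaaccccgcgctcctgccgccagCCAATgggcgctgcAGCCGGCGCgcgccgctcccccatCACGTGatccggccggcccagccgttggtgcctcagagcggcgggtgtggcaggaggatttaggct
At the promoter of *Mtx2*, after HoxD, chr2:74663738-74663859: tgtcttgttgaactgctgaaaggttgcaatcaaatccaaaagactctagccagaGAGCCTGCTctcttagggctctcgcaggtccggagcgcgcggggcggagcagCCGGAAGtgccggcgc

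For contrast, the 200 bases before the TSS of the longest transcript are given for 1 Hox gene each of HoxA, HoxC and HoxD, none of which had a peak (mm9, each on the strand of its gene). These are the genes with the highest promoter CpG ratio in their cluster among those whose 200 bases lie outside every annotated exon, and capitals mark CpG dinucleotides.
*Hoxa5*, chr6:52154587-52154786, minus strand: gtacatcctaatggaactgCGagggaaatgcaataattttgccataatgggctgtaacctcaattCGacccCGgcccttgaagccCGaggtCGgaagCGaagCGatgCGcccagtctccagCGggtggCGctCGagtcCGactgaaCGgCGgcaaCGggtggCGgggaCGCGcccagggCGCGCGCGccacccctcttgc
*Hoxc12*, chr15:102766988-102767187, plus strand: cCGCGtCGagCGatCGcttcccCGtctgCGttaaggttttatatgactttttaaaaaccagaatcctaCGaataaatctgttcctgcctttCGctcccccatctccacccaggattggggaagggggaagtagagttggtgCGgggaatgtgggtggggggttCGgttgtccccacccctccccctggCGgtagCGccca
*Hoxd13*, chr2:74506167-74506366, plus strand: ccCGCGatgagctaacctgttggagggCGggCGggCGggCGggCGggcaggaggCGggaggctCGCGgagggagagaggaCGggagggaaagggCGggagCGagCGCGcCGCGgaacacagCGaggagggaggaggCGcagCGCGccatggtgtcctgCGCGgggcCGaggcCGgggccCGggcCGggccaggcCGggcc
They hold 22 CpG in *Hoxa5*, 13 in *Hoxc12* and 28 in *Hoxd13*. For comparison, gene-proximal BAP1 peaks anywhere in the genome, those within 1 kb of a TSS, had a median of 19 CpG in their 200 bases. The Hox genes shown were chosen for high ratios and their bases end at the TSS, so these counts do not describe Hox promoters in general.

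**Figure D1:**
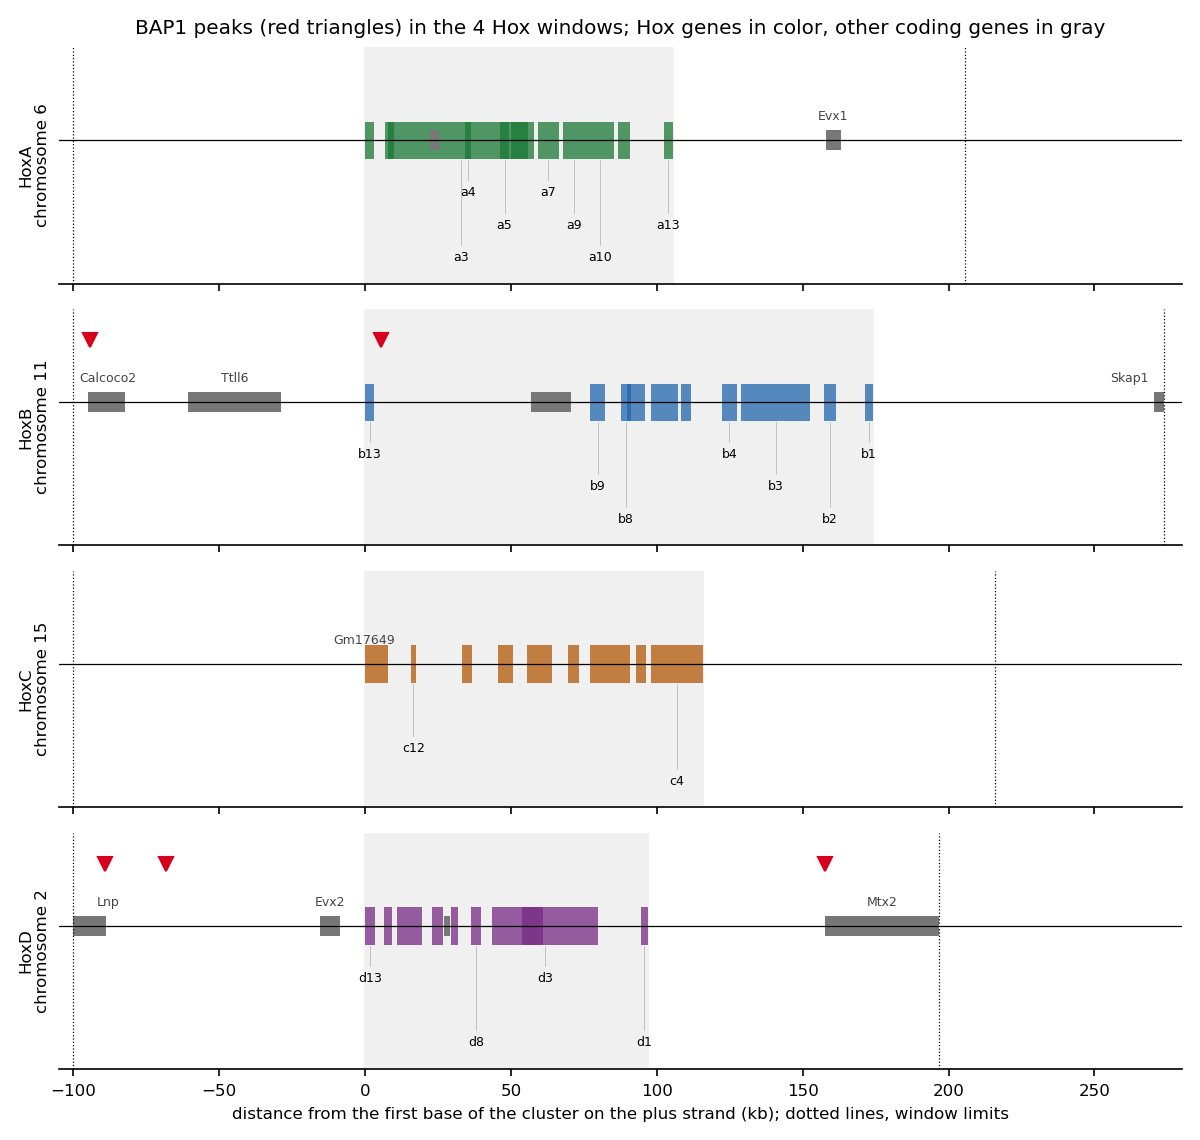
Map of the 4 Hox windows, with the distance in kb from the first base of each cluster on the x axis, Hox genes as colored bars (those the text describes are named), other protein-coding genes as gray bars (those in the flanks are named) and BAP1 peaks as red triangles. The HoxA and HoxC windows hold 0 peaks, the HoxB window 2 and the HoxD window 3, and 1 of these 5 lies inside a cluster.

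One peak lay inside a cluster. It was found on chromosome 11 with its middle 5.50 kb downstream of the TSS of *Hoxb13*, the posterior end of HoxB, in the long interval that separates *Hoxb13* from *Hoxb9*. The annotation has no gene at this place, and the nearest TSS of any kind was 3.64 kb away, that of the long noncoding RNA gene *Gm11538*. Its CpG ratio, the number of CpG observed over the number the base composition predicts, was 0.461, between the medians of gene-distal peaks (0.340) and gene-proximal peaks (0.876). It held 3 matches to the core of the ETS motif, CCGGAAG, of which 2 overlap on opposite strands in the run of capitals CTTCCGGAAG. This motif occurs in 5.60% of gene-distal peaks and 20.2% of gene-proximal ones. A match is a description of the letters and was not tested for binding.

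The remaining 4 peaks lay in the flanks. Of these, 2 were at promoters of genes that border HoxD. *Mtx2*, which encodes a protein of the mitochondrial outer membrane, had a peak 23 bp upstream of its TSS, 60.6 kb beyond the last base of the cluster. *Lnp*, also known as lunapark and coding for a protein of the endoplasmic reticulum, had a peak 69 bp upstream of one of its TSSs, 89.3 kb before the cluster. This peak lay in an intron of a longer *Lnp* transcript. The nearest TSS of any kind was that of the processed transcript *4930445N08Rik*, with the peak 59 bp upstream of it. The sites at *Mtx2* and *Lnp* resembled gene-proximal peaks elsewhere, with CpG ratios of 0.988 and 0.846. The site at *Mtx2* held 2 matches to the ETS core, the second of them in the exonic part that is not printed, and that at *Lnp* held the E-box CACGTG and 2 matches to the NFY motif CCAAT, one of which is printed.

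The other 2 flank sites were away from promoters. One was 68.2 kb before HoxD and 20.7 kb upstream of *Lnp*, in intergenic DNA. The second was 94.2 kb before HoxB, in a coding exon of *Calcoco2* 11.8 kb downstream of the TSS of this gene, and held 0 CpG. Both sites away from promoters in the flanks hold an unbroken tandem repeat of 50 bp or more, which in the *Calcoco2* site takes 189 of the 200 bases with a period of 21 bp. Such repeats were found in 28.4% of gene-distal peaks and 8.95% of gene-proximal ones. The part of such repeats in the calls was not tested. A match to the core of the CTCF motif, AGNNGGCNC, was present in 3 of the 5 sites, both promoter sites among them, and the motif occurs in 20.6% of all peaks. The *Calcoco2* site held none of the motifs searched.

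Peaks were also counted per length. The 4 windows span 1292 kb and held 0.387 peaks per 100 kb, compared with 0.515 in the sequenced genome. The value was 1.01 in the HoxD window, 0.535 in the HoxB window and 0 in those of HoxA and HoxC. Between the first and the last base of the Hox genes, the 4 clusters span 492 kb, and the single peak there amounts to 0.203 per 100 kb. These densities rest on 5 peaks or fewer.

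The distance from each Hox gene to the nearest peak is shown in the plot of distances. The median was 143 kb, with quartiles of 91.8 and 189 kb, whereas the median over all protein-coding genes was 16.6 kb and that over the genes without a peak within 1 kb was 82.97 kb. Only 1 Hox gene, *Hoxb13*, had a peak within 10, 20 or 50 kb, compared with 46%, 51.9% and 62.8% of all protein-coding genes. Within 100 kb the count was 13 of 39 (33.3%), compared with 72.7%, and within 200 kb it was 33 of 39 (84.6%), compared with 82%. *Hoxb13*, at 5.50 kb, is therefore the gene nearest to the 1 kb limit, and *Hoxd1* follows at 62.8 kb.

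The clusters differed in this distance. HoxD genes lay 62.8 to 105 kb from a peak, with the nearest peak either at *Mtx2* or at the site between *Lnp* and the cluster. The largest HoxD distance was that of *Hoxd8*, in the middle of the cluster. In HoxB, the distance grew from *Hoxb9*, at 71.6 kb, through *Hoxb4*, a gene studied for its effect on blood stem cells, at 117 kb, to *Hoxb1*, at 166 kb, because for each of them the site downstream of *Hoxb13* was the nearest. HoxC genes were 118 to 214 kb from a peak, with *Hoxc4* nearest and *Hoxc12* farthest. HoxA genes had the longest distances, with a median of 196 kb and 248 kb at *Hoxa13*. *Hoxa9*, known for its part in leukemia, was 214 kb from a peak, and its neighbors *Hoxa7* and *Hoxa10* were 205 and 221 kb away. The distances of genes in a cluster are not independent, as neighbors share the same nearest peak.

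**Figure D2:**
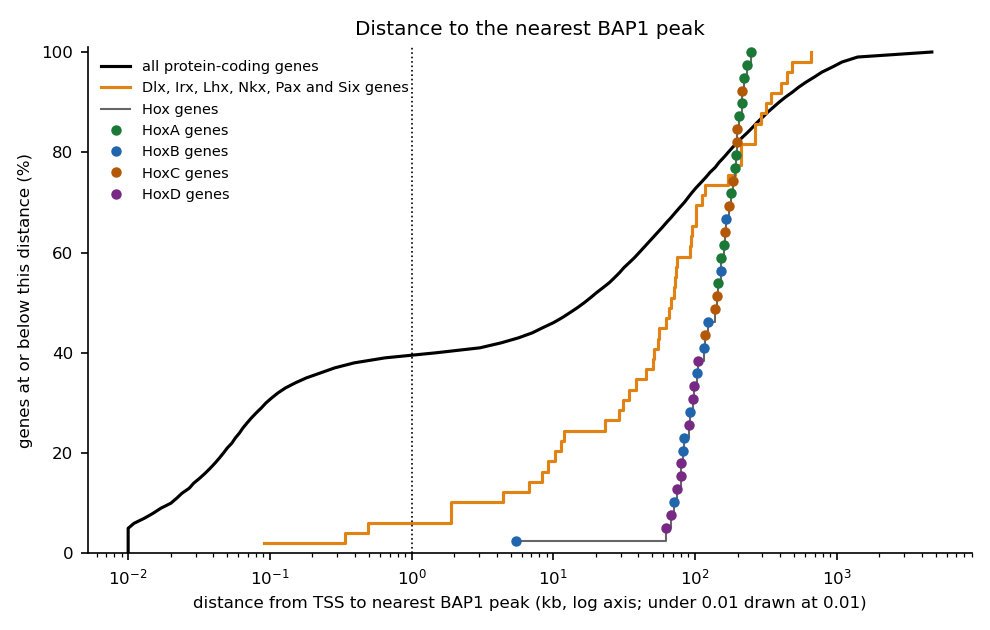
Share of genes (y axis, %) whose nearest BAP1 peak lies at or below a distance from a TSS (x axis, kb, log scale), for all protein-coding genes (black), for the Dlx, Irx, Lhx, Nkx, Pax and related families (orange) and for each Hox gene (points colored by cluster). All Hox genes lie to the right of the dotted line at 1 kb, and all but *Hoxb13* lie beyond 62 kb, whereas 39.6% of the protein-coding genes lie at or below 1 kb.

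The clusters lay in long stretches without a peak. The HoxA stretch was 628 kb long and ran from a peak 88 bp upstream of the TSS of *Skap2*, an adaptor protein of immune cell signaling, to one 5 bp downstream of that of *Hibadh*, an enzyme of valine breakdown. It was longer than 92.4% of the stretches between neighboring peaks, the median of which was 42.4 kb. HoxB without *Hoxb13* lay in a stretch of 578 kb that ended 12 bp upstream of *Snx11*, a sorting nexin. HoxC lay in one of 430 kb, from a peak 84 bp upstream of *Calcoco1* to one 5.41 kb downstream of the TSS of *Smug1*, a DNA repair glycosylase. The HoxD stretch, from the site upstream of *Lnp* to *Mtx2*, was 226 kb. The stretches of HoxB, HoxC and HoxD were longer than 91.7%, 89.3% and 82.2% of all stretches. *Hoxb13* lay in a stretch of 99.7 kb, longer than 68.7%. HoxA, HoxC and HoxD hold no peak and each span at least 96.8 kb, so their stretches exceed the median by construction. A long stretch is also more likely than a short one to hold any given gene, so these percentages overstate how unusual the stretches are. Counted by gene, 62.7% of protein-coding genes without a peak within 1 kb had a distance at or below the median of the Hox genes.

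The promoters within these stretches were counted. A promoter was called CpG-rich when its CpG ratio within 500 bp on either side of the TSS was 0.6 or more. The HoxA stretch held 10 CpG-rich protein-coding promoters, the second most of all 13143 stretches. Above it was a stretch of 2990 kb on chromosome 14, whose 14 CpG-rich promoters belong to predicted genes with *Gm* symbols. The HoxD stretch held 6, and those of HoxB and HoxC 5 each. Not all of these belong to Hox genes. The counts include *5730596B20Rik* and *Evx1* for HoxA, *Evx2* for HoxD, *Gm53* for HoxB and *Gm17649* for HoxC. *Gm17649* lies next to *Hoxc13*, and the stretches used for their CpG ratios overlap. In total, 65 stretches held 5 or more, and 4 of these contain Hox genes. One of the 5 in the HoxB stretch is the promoter of *Snx11*, which carries the peak at its end. Counting only CpG-rich promoters without a peak within 1 kb, the HoxB stretch held 4 and the others 10, 6 and 5 as before, and of the 26 stretches with 5 or more, 3 contain Hox genes. This ranking was chosen after the data were seen, and it describes the list.

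BAP1 peaks were more frequent at CpG-rich promoters, and many Hox promoters are of this kind. The share of protein-coding genes with a peak rose with the CpG ratio, from 4.84% for ratios under 0.2 through 31.9% for 0.4 to 0.6 to 76.5% for 0.8 to 1.0. The Hox genes had a median ratio of 0.614, with quartiles of 0.437 and 0.736, above the median of 0.546 over all protein-coding genes and below that of 0.761 over genes with a peak. A CpG-rich promoter was found at 20 of the 39 Hox genes. Among all protein-coding genes with a CpG-rich promoter, 69.9% had a BAP1 peak, and among these 20 Hox genes the count was 0. At ratios of 0.8 to 1.0, where 76.5% of protein-coding genes had a peak, there were 8 Hox genes. The highest values were those of *Hoxa5* (0.996), *Hoxa13* (0.953), *Hoxd8* (0.921), *Hoxa4* (0.919) and *Hoxd13* (0.905).

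The ratio also varied between and within clusters. The median was 0.675 in HoxA, 0.620 in HoxD, 0.594 in HoxC and 0.439 in HoxB. This order depended on the stretch chosen, since from 250 bp before to 50 bp after the TSS the medians were 0.847, 0.543, 0.634 and 0.702. In HoxB the ratio ranged from 0.318 at *Hoxb4* to 0.803 at *Hoxb9*. *Hoxb2*, *Hoxb3* and *Hoxb8* had 0.401, 0.328 and 0.741, and in the shorter stretch 0.572, 0.741 and 0.973. The lowest value was that of *Hoxd3* (0.229), but this gene has 6 TSSs and the ratio at its most CpG-rich one was 0.831. Among protein-coding genes with a ratio within the range of the Hox genes, 50.5% had a peak.

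**Figure D3:**
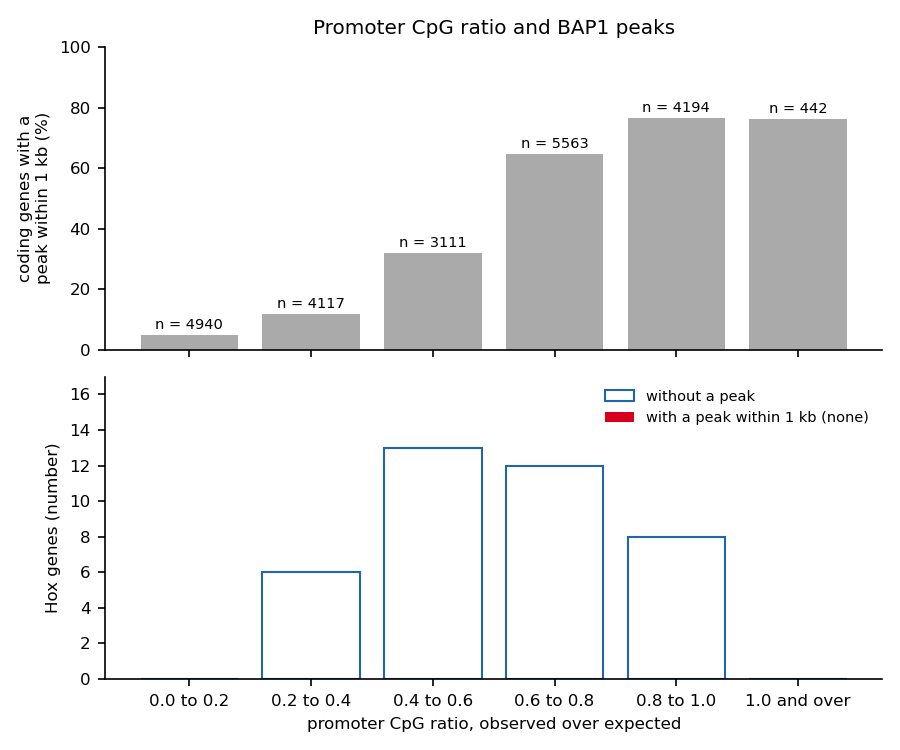
Share of all protein-coding genes with a BAP1 peak within 1 kb of a TSS (upper panel, %, n above each bar) and number of Hox genes (lower panel) by promoter CpG ratio. The share rises from 4.84% to 76.5% at ratios of 0.8 to 1.0, and all 39 Hox genes, 20 of them at 0.6 or more, are in the open bars without a peak.

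The same absence of peaks was also counted without the annotation, since a missing or misplaced TSS could hide a peak. The genome was divided into bins of 1 kb, and bins with a CpG ratio of 0.6 or more and at least 50% G+C were kept. Of 16059 such bins, 39.2% held the middle of a peak. The Hox clusters contained 62 of them, 21 in HoxA, 15 in HoxB, 12 in HoxC and 14 in HoxD, and 0 held one. Bins are not independent of each other, as one CpG island can fill several. Only 1 listed peak lies inside the clusters, so at most 1 of the 62 bins could have held one. The count of bins thus restates that absence and is no separate check.

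Other genes inside the clusters had no peak within 1 kb either, the protein-coding *5730596B20Rik*, *Gm53* and *Gm14396* among them. The annotation has 29 noncoding and pseudogene entries there, and 0 had a peak within 1 kb, compared with 6.1% of such entries in the whole genome. With so low a share, a count of 0 says little about these entries. *Mir10a*, *Mir196a-1*, *Mir196a-2* and *Mir615* are each entered both as a microRNA and as a processed transcript. The entries include 5 lincRNA genes, of which *Gm11538* was nearest to a peak and *Hoxa11as* farthest, at 232 kb. The processed transcript *Hoxb3os* lay 148 kb from a peak. They also include the microRNA genes *Mir10a*, *Mir10b*, *Mir196a-1*, *Mir196a-2*, *Mir196b* and *Mir615*, which lay 65.3 to 218 kb from a peak. The microRNAs of the families miR-10 and miR-196 are known to repress Hox transcripts. Their mature sequences (RefSeq, GRCm38.p6) are given with the seed, bases 2 to 8, in capitals, since genes with 1 seed lie in different clusters.
miR-10a-5p, HoxB: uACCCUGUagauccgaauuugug
miR-10b-5p, HoxD: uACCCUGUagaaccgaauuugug
miR-196a-5p, HoxB and HoxC: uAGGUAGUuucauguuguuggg
miR-196b-5p, HoxA: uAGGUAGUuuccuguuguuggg
The first pair shares the seed ACCCUGU and the second pair the seed AGGUAGU.

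Among the protein-coding genes in the windows that are no Hox genes, *Lnp* and *Mtx2* were the only ones with a peak within 1 kb. The homeobox genes *Evx1* and *Evx2*, which lie next to the posterior ends of HoxA and HoxD, had their nearest peak at 301 and 59.3 kb, and their promoter ratios were 0.611 and 0.685. *Ttll6*, a tubulin-modifying enzyme, was 33.7 kb and *Skap1*, a T cell adaptor protein, 69.3 kb from a peak.

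Genes that work with or upstream of Hox proteins were counted in lists. TALE homeodomain proteins bind DNA together with Hox proteins, and 5 of 9 of their genes had a peak within 1 kb (55.6%, 95% Wilson interval 26.7 to 81.1), an interval that contains the 39.6% of all protein-coding genes. These were *Pbx2*, *Pbx3*, *Pbx4*, *Meis2* and *Pknox1*, with the middle of the nearest peak 86, 340, 140, 21 and 102 bp from a TSS. *Meis1*, a cofactor of *Hoxa9* in leukemia, was 901 kb from any peak. *Meis3* was at 8.50 kb and *Pknox2* at 60.9 kb. All 9 genes listed for the MLL complex and its partners, which keep Hox genes active, had a peak, at distances of 12 to 261 bp (95% Wilson interval 70.1 to 100%). Of these 9, 7 have a CpG-rich promoter, a class in which 69.9% of protein-coding genes had a peak. These were *Mll1*, the histone H3 lysine 4 methyltransferase, its relative *Wbp7*, the core subunits *Wdr5*, *Ash2l*, *Rbbp5* and *Dpy30*, the adaptors *Men1* and *Psip1*, and the methyltransferase *Dot1l*.

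Few genes of the 2 other lists, of homeobox and Pax genes, had a peak at the promoter, unlike the TALE homeobox genes above (5 of 9). Of the 13 ParaHox and related genes (the *Cdx*, *Gsx*, *Evx*, *Gbx* and *Meox* genes, *Pdx1* and *Mnx1*), 0 had a peak within 1 kb, although 9 have a CpG-rich promoter, and their median distance was 111 kb. In the Dlx, Irx, Lhx, Nkx and Pax families and that of *Six5*, 3 of 49 genes had a peak (6.12%, 95% Wilson interval 2.10 to 16.5), among them *Dlx1* and *Six5*. All 3 are among the 38 genes of these families with a CpG-rich promoter. The count was 1 of 6 Dlx genes and 2 of 6 genes in the family of *Six5*. It was 0 of 6 Irx, 0 of 8 Lhx, 0 of 14 Nkx and 0 of 9 Pax genes, including *Pax5*, the factor of B cell commitment, with its nearest peak at 45.1 kb. *Irx2* and *Irx5* were just outside the 1 kb limit, with a peak 1.895 and 1.888 kb away. The median distance in these families was 67.97 kb and 36.7% of the genes had a peak within 50 kb, compared with 143 kb and 1 gene (2.56%) for the Hox genes. The lists were chosen with earlier results of these data known, and no test was made between them.

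**Figure D4:**
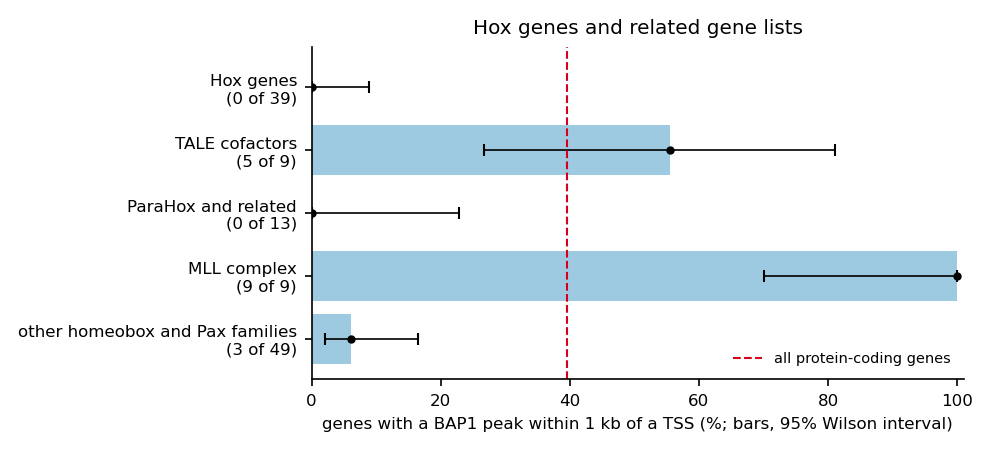
Share of genes with a BAP1 peak within 1 kb of a TSS (x axis, %) in the Hox genes and 4 other lists, with 95% Wilson intervals as whiskers and the share over all protein-coding genes (39.6%) as a dashed line. The Hox genes (0 of 39), ParaHox and related genes (0 of 13) and other homeobox and Pax families (3 of 49) lie left of the line, and the MLL complex (9 of 9) lies right of it. The whisker of the TALE cofactors (5 of 9) crosses the line. The whiskers treat genes as independent, so that of the clustered Hox genes is too narrow.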

How the data were processed

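For both immunoprecipitations, the authors aligned reads to mm9 (Bowtie 1.0.0) and ran MACS (1.4.2 per the submitters' processing notes) against input DNA. They deposited 1 list for both, with chromosome, start, end and name and no signal or score. Every peak is named for both samples together. The threshold and the rule that joined the samples are not given in the sources used here. Columns left without a sample numbered 0.

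Peaks were placed on GENCODE M1 (NCBIM37, the same build as mm9). A gene had a peak when a peak's middle (start plus 100 bp) lay within 1 kb of any of its TSSs. Distances were checked against bedtools 2.31.1, and the counting was tested on simulated data. CpG ratios used 500 bp on either side of the TSS of the longest transcript. Motifs were searched on both strands, overlapping matches included. The share of all peaks with a match was 16.8% for the ETS motif CCGGAAG and 20.6% for the CTCF core AGNNGGCNC. It was 5.61% for the YY1 motif GATGGCG, 18.3% for the NRF1 motif GCNTGCGC, 2.80% for the CRE motif TGACGTCA, 28.5% for the NFY motif CCAAT, 7.04% for the E-box CACGTG and 8.05% for the RUNX motif TGTGGT. It was 2.80% for AGATAA, bound by GATA factors, 3.81% for the AP-1 motif TGANTCA, 2.54% for the ZNF143 motif ACTACAA and 0.600% for the Hox-Pbx motif TGATTNAT. Tandem repeats were read as unbroken runs with a period of 2 to 50 bp. All 39 Hox genes are accounted for, and of the lists, members with a peak or, for the shorter set, those without one are named, apart from a few items that are not reported here. The members and lists were chosen with earlier results of these data known. No set test was made. Python 3.11.15, numpy 2.4.6 and scipy 1.17.1 were used.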

Additional observations from a re-analysis of the deposited data

How the results depend on the processing

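The count of Hox genes with a peak at the promoter was 0 under each alternative tried: windows of 500, 2000 and 5000 bp, the edge of the peak, one TSS per gene, TSSs of protein-coding transcripts, and merging of peaks within 500 bp. Over these, the share of protein-coding genes with a peak ranged from 37.0 to 42.5%. The number of peaks in the Hox windows follows the flank by construction, with 1 peak for flanks of 50 kb and 14 for flanks of 200 kb against 5 for 100 kb, and merging left it at 5. The median CpG ratio of the Hox genes was 0.659 from 250 bp before to 50 bp after the TSS and 0.698 at the most CpG-rich TSS. Over all protein-coding genes these medians were 0.544 and 0.602. Taking the most CpG-rich TSS can only raise the ratio of a gene. The SD over genes was 0.208, which describes how genes differ and is no error of the median. With one TSS per gene the median distance was again 143 kb. The bins of 1 kb and both rankings of peak-free stretches were added after seeing the data. No paired analysis was possible because the groups with shared clone numbers, the H2AK119ub and input samples of the knockout clones, were not analysed here. No replicate could be left out, as the list joins both samples. A list without scores and of unknown depth cannot separate an unbound promoter from one below the threshold.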

Other observations

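Beyond the windows, the flanks from 100 to 200 kb bring in the promoters of several other genes. On the *Hoxb13* side of HoxB, peaks lay 10 bp downstream of the TSS of *Ube2z*, a ubiquitin-conjugating enzyme, 11 bp upstream of *Snf8*, a subunit of the endosomal sorting machinery, and 0.042 and 0.35 kb upstream of *Atp5g1*, a subunit of the mitochondrial ATP synthase. Their CpG ratios were 0.784, 0.935, 0.593 and 0.775. Before HoxA and HoxC, peaks lay at the promoters of *Skap2* and *Calcoco1*, with ratios of 0.815 and 0.664. After HoxC, 3 peaks surrounded *Smug1* without lying within 1 kb of its TSS, at 5.41 kb downstream and at 5.42 and 11.1 kb upstream. Of these, the upstream ones had high CpG ratios, 1.02 and 1.04, and the downstream one had 0.0755. The 14 peaks within 200 kb correspond to 0.669 per 100 kb, compared with 0.515 in the genome.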
